A study of Mus musculus with 21 samples.

Results

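The intraflagellar transport (IFT), BBSome and transition zone genes are the machinery that builds a cilium and decides which proteins enter it. The set was taken by gene symbol from the deposited table: the numbered Ift and Bbs genes and a fixed list of other symbols, namely the IFT-A genes Wdr19, Wdr35 and Ttc21b, the BBSome gene Ttc8, the kinesin-2 and dynein-2 motor genes, the transition zone genes, and small GTPases and adaptors of the ciliary membrane. It holds 54 of the 31883 genes of the table. All 54 passed the filter of a mean of at least 1 normalized count in either tissue.

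Of 21 bulk RNA-seq libraries of C57BL/6 mice, the 9 of postnatal day 0 (P0) were used, 4 from the subcommissural organ (SCO), a secretory ependymal gland in the roof of the third ventricle, and 5 from hippocampus. No treatment or genetic change is given for either group. The other 12, from postnatal day 60, were not analysed here. All values are normalized counts, meaning reads per gene after scaling by 1 factor for each library, and the libraries held 35379988 to 151009954 reads. Nothing in the labels says that the replicates are separate animals. The p-values therefore reflect only how far these samples spread, and that spread may be technical.

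A cilium grows from a basal body by trains of IFT particles. Kinesin-2 carries the trains, with the IFT-B complex, towards the tip, and dynein-2, with the IFT-A complex, brings them back. The BBSome rides on the trains and moves membrane proteins out of the cilium, while the transition zone at its base, built by the MKS and NPHP protein modules, acts as the gate. Most brain cells carry a primary cilium, and ependymal cells carry tufts of motile cilia built with the same machinery. In bulk RNA, fewer cells of a type and less RNA per cell cannot be told apart.

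The tissue labels were checked against marker genes. Of 5 SCO markers, 4 rose in SCO in limma-trend (adjusted p under 0.05), and their summed level was 16805 to 44659 normalized counts there against 918 to 2811 in hippocampus. All 10 markers of hippocampal and cortical neurons were lower in SCO, where their sum was 1667 to 4334 against 93897 to 108602. Of 10 ependymal markers, 6 rose, 8 diencephalic neuron markers gave 6 higher, and 6 red blood cell genes gave 4 higher. SCO replicate 4 stood apart for choroid plexus markers, with a sum of 181047 against 1646 to 4500 in the other SCO libraries. In hippocampus that sum was 14276 in replicate 2 and 8168 in replicate 5, against 629 to 2447 in the others. Replicates of one tissue differed well beyond counting noise, with correlations of log2 values of 0.664 to 0.691 in SCO and 0.689 to 0.812 in hippocampus over 16631 genes.

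More of the cilium transport and transition zone RNA was found in SCO, though few single genes passed the test. Of the 54 genes, 42 had a positive log2 fold change, the mean of log2(value + 1) in SCO less that in hippocampus, and the median was 0.88. Over all 28150 genes tested, 48.6% were positive and the median was -0.04. Over the 13182 tested genes within the same range of mean level, the median was -0.02 and 16.9% were at least 2-fold higher in SCO. That size was reached by 25 of the 54, or 46.3%, while Arl13b was the 1 gene at least 2-fold lower, where 14.9% of those 13182 genes were. These counts depend on the measure. Bbs12, Bbs1 and Wdr35 are among the 25, but their ratios of mean counts were 1.25, 1.79 and 1.96. By mean counts B9d2 was also lower, by 2.04-fold.

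Ift74, Dync2li1 and Tctn2 rose in SCO at a limma adjusted p under 0.05, 3 of 54, where 1.71% of all tested genes did. None of the 54 was called lower, where 1.34% of all tested genes were. At an unadjusted limma p under 0.05 there were 21 higher and 3 lower, against 8.33% and 7.14% of all tested genes. On the recovered reads, edgeR's quasi-likelihood test called 2 higher and 0 lower, against 1.07% and 0.721%. DESeq2 called 13 higher and 1 lower, against 7.06% and 5.75% of the 21144 genes to which it gave an adjusted p. Every SCO library was above every hippocampus library for 10 of the 54 against 4.78% of all genes. For Arl13b alone every SCO library was below, against 3.75% of all genes. Among the 13182 tested genes within the same range of mean level, these shares were larger than over all genes. Of them limma called 360 higher and 254 lower, and 1631 and 1327 had an unadjusted limma p under 0.05. Every SCO library was above every hippocampus library for 1021 of the 13182 and below for 715. The authors' deposited comparison is not separate support for the DESeq2 counts, since it used the same libraries and, per the processing notes, DESeq2. In their deposited table, 13 of the 54 passed an adjusted p of 0.05 as higher and 1 as lower, where 6.98% and 5.69% of its 21475 genes with an adjusted p did. Beside the 3 called genes, the higher ones there included Ift43, Ift81, Ift88, Ift122, Bbs2, Bbs9, Tctn1, Tmem67 and Tmem231.

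Summed over the 54 genes, the 4 SCO libraries held 186868, 215892, 190692 and 168089 normalized counts. The 5 hippocampus libraries held 141855, 132453, 126019, 123572 and 136228. The lowest SCO library thus stood above the highest hippocampus library, and the mean was 190385 ± 19665 (SD, n = 4) against 132026 ± 7450 (SD, n = 5). As a share of all normalized counts, the genes made up 0.345% ± 0.0454 in SCO and 0.236% ± 0.0186 in hippocampus. The sum of the 10 ependymal markers moved the same way, with 26596 to 42142 in SCO and 5063 to 10601 in hippocampus. These markers include cilium genes, among them Cfap52 and Rsph1, which are also in the radial spoke and central apparatus list below. The sum of 10 pan-neuronal markers moved the other way, with 182888 to 378122 against 346652 to 489735. The part of these cell types in the result was not tested.

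**Figure D1:**
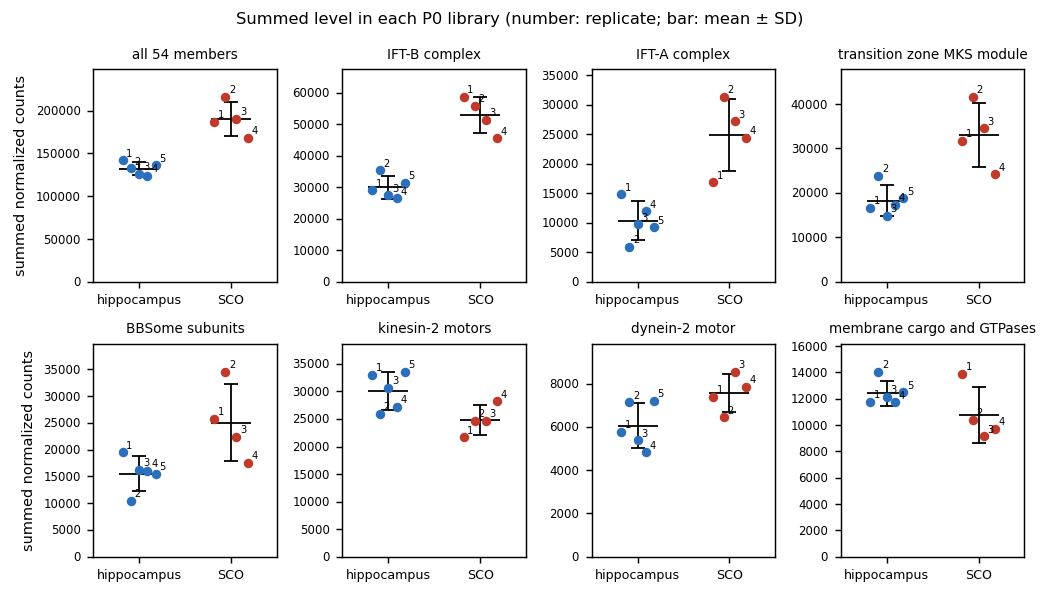
Summed normalized counts (vertical axis) of all 54 genes and of 7 role groups in each P0 library, with blue points for hippocampus, red points for SCO, the replicate number beside each point, and bars for mean ± SD. The sums of all 54 genes, of IFT-B, of IFT-A and of the MKS module did not overlap between the tissues, while those of the kinesin-2 motors, the dynein-2 motor, the BBSome subunits and the membrane cargo and GTPases did.

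The sequences next to these genes were read for the X-box, the motif bound by RFX transcription factors, which are known regulators of cilium genes. RefSeq promoters (GRCm38.p6, 250 bases before to 50 after the start) were held for 47 of the 54. An X-box, searched as GTTNCC, 1 to 3 bases and GGNAAC, which reads the same on both strands, lay in the promoters of 6 of these 47 genes (12.8%), and in 0.903% of the 27025 genes with a promoter. A looser form, GTNNCC, 1 to 3 bases and GGNNAC, which includes the first, lay in 15 (31.9%) against 4.00%. The half-site GTTGCC, on either strand and also counted within an X-box, lay in 23 (48.9%) against 14.1%. The forkhead motif GTAAACA, on either strand, was in none of the 47 and in 4.05% of all genes. Matches are letters in a window and not measured binding. The lines give matches before the start, with the X-box in capitals and the base at which it begins counted from the start: the called gene Tctn2 first, then Wdr19 and Ift22 of the IFT complexes with the looser form, then those with the stricter form.
Tctn2, chr5:124598679-124598708, plus strand, from -62: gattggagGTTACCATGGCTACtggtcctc
Wdr19, chr5:65199654-65199683, plus strand, from -34: tttgcacgGTCTCCTGGGTGACgagaacgc
Ift22, chr5:136908109-136908138, plus strand, from -33: tgttcccgGTCGCCGTGGAAACtgaccagc
Mks1, chr11:87853183-87853212, plus strand, from -24: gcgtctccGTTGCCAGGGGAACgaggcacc
Tctn3, chr19:40612351-40612379, minus strand, from -140: tcccagcgGTTGCCAGGTAACgggaacca
Ift57, chr16:49699226-49699254, plus strand, from -60: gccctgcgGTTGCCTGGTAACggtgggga
Bbs7, chr3:36613489-36613518, minus strand, from -121: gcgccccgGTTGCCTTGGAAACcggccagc
Lztfl1, chr9:123717767-123717797, minus strand, from -164: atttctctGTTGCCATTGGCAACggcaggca

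The 15 genes with the looser X-box had a median log2 fold change of 1.26, and all 15 were positive, from 0.14 to 3.19. The 32 without it had a median of 0.48, from -1.37 to 2.14, and 20 were positive. With the stricter X-box the 6 genes had a median of 0.88, and the 41 without it 0.64. These are descriptions without a test. Of the called genes, Tctn2 holds the looser form, Ift74 holds none of the motifs searched, and no promoter was held for Dync2li1.

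**Figure D2:**
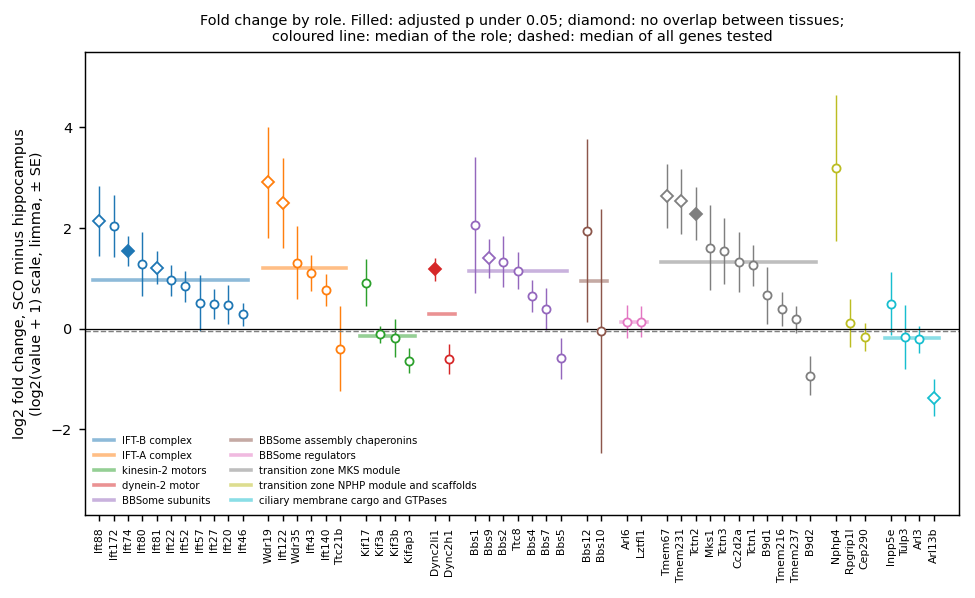
Log2 fold change of 52 of the genes in log2(value + 1) units, SCO minus hippocampus (vertical axis, bars for ± SE from limma), grouped by role, with filled symbols for an adjusted p under 0.05 and diamonds for genes whose tissues do not overlap. All 11 IFT-B genes lie above 0, and 3 of the 4 kinesin-2 genes lie below 0. The coloured medians of IFT-A, the BBSome subunits and the MKS module lie above 1, and no median is drawn for the NPHP module and scaffolds.

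IFT-B, the complex of anterograde trains, was measured through 11 genes. All 11 had a positive log2 fold change, with a median of 0.96, from 0.28 for Ift46 to 2.14 for Ift88, and 1 was called. Ift74 (chr4:94614491-94693229, plus strand), whose product pairs with that of Ift81 to bind tubulin, held 6137, 6708, 4949 and 3779.9 normalized counts in SCO replicates 1 to 4 and 1912, 1218, 1716, 2774 and 1773 in hippocampus replicates 1 to 5. Every SCO library stood above every hippocampus library. The means were 5393 ± 1302 (SD, n = 4) and 1879 ± 565 (SD, n = 5), and Ift74 rose by 1.54 on the log2 scale (standard error 0.30, adjusted p = 0.0218 by limma). Its partner Ift81 held 7460.0, 7198, 8817 and 6078 in SCO and 4102, 1501, 3294, 3292 and 4703 in hippocampus, also without overlap. Its log2 fold change of 1.21 (SE 0.33) did not pass, with a limma adjusted p of 0.0835.

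Ift88, the subunit whose partial loss in the mouse causes polycystic kidneys, held 4555, 4046, 1399 and 1328 in SCO and 608, 1019, 694, 1003 and 115 in hippocampus. The SCO libraries fell into a high pair, replicates 1 and 2, and a low pair just above the hippocampus libraries, of which replicate 5 was the lowest. The log2 fold change was 2.14 (standard error 0.69, adjusted p = 0.145 by limma), and without hippocampus replicate 5 it was 1.58 (adjusted p = 0.155 by limma). Ift20, which also works at the Golgi and had the highest level per kilobase of exon in the complex, held 4267, 4473, 6186 and 3190.1 in SCO and 2356, 7610.2, 3061, 2931 and 1992 in hippocampus. Hippocampus replicate 2 held more than any SCO library, and the tissues overlapped (log2 fold change 0.47 ± 0.39 SE, adjusted p = 0.598 by limma).

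None of the other 7 IFT-B genes passed. Ift172, a large peripheral subunit, had 1994 ± 909.7 in SCO and 611 ± 585 in hippocampus, where replicate 5 alone held 1628 and the other replicates 172 to 545. It was called without that library (adjusted p = 0.0302 by limma). In the other 8 fits that each leave out 1 library it was not called, with limma adjusted p-values up to 0.257. Ift80 had 2292 ± 832 and 1127 ± 696, and Ift52, a core subunit, 3559 ± 507 and 2079.6 ± 853. Ift46 had 5723 ± 1105 and 4690.3 ± 736. The small GTPase Ift22 had 8457 ± 1974 and 4531 ± 1873, and the small GTPase Ift27, which links IFT-B to BBSome exit, 5843 ± 617 and 4385 ± 1736. Ift57 had 4784 ± 2721 and 2958 ± 1379, with SCO replicate 3 at 1099, below every hippocampus library. Log2 fold changes of these 7 were from 0.28 to 2.04, with limma adjusted p-values from 0.114 for Ift172 to 0.664 for Ift57.

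IFT-A, the complex of retrograde trains and of membrane protein entry, had a median log2 fold change of 1.21 over 6 genes, 5 of them positive, and none was called. Wdr19 (chr5:65199696-65260415, plus strand), the subunit also known as IFT144, held 2832, 2512, 3656 and 3530.3 in SCO and 1512, 593, 528, 1317 and 18.3 in hippocampus. All SCO libraries stood above all hippocampus libraries, which were themselves spread from 18.3 in replicate 5 to 1512 in replicate 1. The log2 fold change of 2.90 had an SE of 1.10 (adjusted p = 0.224 by limma). Ift122, a core subunit, held 5064, 10749.7, 7853 and 9992 in SCO and 3709, 111, 2373, 2639.7 and 2301 in hippocampus. Hippocampus replicate 2 was far below the other libraries of its tissue, and the tissues did not overlap. Its log2 fold change was 2.50 (standard error 0.90, adjusted p = 0.196 by limma) and was 1.58 without hippocampus replicate 2, where the adjusted p was 0.0173. Ift122 was not called in the other 8 fits that each leave out 1 library, with limma adjusted p-values up to 0.339.

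Ift43, the smallest IFT-A subunit and the highest of them per kilobase, held 3672, 6098, 3546 and 2910.2 in SCO and 1448, 3467, 2058, 1241 and 1549.6 in hippocampus. Here hippocampus replicate 2 was the high library, and it lay within the SCO range. Its log2 fold change was 1.10 (standard error 0.36, adjusted p = 0.149 by limma). Wdr35 had 5332 ± 2366 in SCO and 2718 ± 1674 in hippocampus, and Ift140 2961 ± 477 and 1814 ± 601, with limma adjusted p-values of 0.438 and 0.287. Ttc21b, whose product is IFT139, had a higher mean in SCO (1052 ± 933 against 839.8 ± 306) but a log2 fold change of -0.40, with SCO replicate 1 at 80.6 against 528 to 2169 in the other SCO libraries.

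Kinesin-2 genes, which encode the motor of anterograde trains, had a median log2 fold change of -0.15, with 1 of 4 positive and none called. Kif3a, a motor subunit used in cilia and in axonal transport, held 12466, 15617, 15532 and 16728 in SCO and 14760.5, 15752, 16813, 15227 and 18875 in hippocampus. The libraries of both tissues lay within a narrow and overlapping range (log2 fold change -0.11 ± 0.16 SE, adjusted p = 0.743 by limma). Kifap3, the cargo adaptor of the same heterotrimer, held 7238, 6233, 5728 and 9509 in SCO and 16050.1, 7546, 11993, 10161 and 10638 in hippocampus. The tissues overlapped, with hippocampus replicate 1 the highest (log2 fold change -0.64 ± 0.25 SE, adjusted p = 0.249 by limma). Kif3b, the other motor subunit, had 1751 ± 607 and 2043 ± 909, and Kif17, the homodimeric kinesin-2 of some sensory cilia, 797 ± 187 and 449.8 ± 189.8.

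The dynein-2 genes of the set, which encode the retrograde motor, had log2 fold changes of opposite sign. Dync2li1 (chr17:84626496-84655588, plus strand), the light intermediate chain that steadies the motor, held 5294, 4792, 4988 and 4839 in SCO and 2433, 2876, 1820.1, 2061 and 1954 in hippocampus. The 4 SCO libraries lay close together and all above the hippocampus libraries. The means were 4978 ± 226 (SD, n = 4) and 2229 ± 427 (SD, n = 5), and Dync2li1 rose by 1.18 (standard error 0.23, adjusted p = 0.0217 by limma). Dync2h1, the heavy chain, held 2105, 1652, 3553 and 3015 in SCO and 3337, 4257, 3572, 2775 and 5252 in hippocampus. Its tissues overlapped, and the log2 fold change was -0.60 (standard error 0.31, adjusted p = 0.385 by limma).

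The BBSome subunits had a median log2 fold change of 1.16, with 6 of 7 positive and none called. Bbs9, a subunit of the assembly core, held 4958, 2900.1, 2387 and 3172 in SCO and 1593, 616, 1235, 2031 and 1104 in hippocampus. It was the 1 subunit whose tissues did not overlap, and its log2 fold change was 1.40 (standard error 0.39, adjusted p = 0.0877 by limma). Bbs4, a subunit of the late assembly steps and the highest of the 7 per kilobase in SCO, held 8971, 14518, 7266 and 6067 in SCO and 7172, 3329.7, 5793, 7206 and 5373 in hippocampus. SCO replicate 2 was the highest library, and the tissues overlapped (log2 fold change 0.64 ± 0.32 SE, adjusted p = 0.366 by limma).

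Bbs2 had 2053 ± 1142 in SCO and 772 ± 326 in hippocampus (a log2 fold change of 1.33), Ttc8, which encodes BBS8, 4161 ± 1215 and 1973 ± 968 (1.16), and Bbs7 3651 ± 1753 and 2729.8 ± 1091 (0.38). Bbs5, the phosphoinositide-binding subunit, was the 1 subunit with a negative log2 fold change, -0.59, with 1693 ± 800.5 and 2472 ± 909.8. Bbs1, through which the GTPase Arl6 recruits the complex, held 357, 1450.0, 884 and 1002 in SCO and 575, 6.60, 709.9, 78.6 and 1208 in hippocampus. Its hippocampus values thus ran from 6.60 to 1208, and the log2 fold change of 2.06 had an SE of 1.34. The limma adjusted p-values of these 5 genes were between 0.147 and 0.662.

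The chaperonin-like genes that assemble the BBSome, Bbs10 and Bbs12, did not pass, and their libraries were widely spread. Bbs12 held 533, 975, 544 and 955 in SCO and 1167, 368, 597, 878 and 0 in hippocampus. With hippocampus replicate 5 at 0 reads, its log2 fold change was 1.95 (standard error 1.82, adjusted p = 0.637 by limma), and without that library it was 0.06. A count of 0 bounds a library at 3 reads, for counting error only. Bbs10 was at 0 reads in SCO replicate 1 and in hippocampus replicate 2, and its log2 fold change of -0.04 had an SE of 2.43. Arl6, the GTPase that brings the BBSome to membranes, held 4794, 3314, 5244 and 3097 in SCO and 4745, 5827, 3194, 2243 and 3186 in hippocampus. Its tissues overlapped nearly fully (log2 fold change 0.14 ± 0.32 SE, adjusted p = 0.852 by limma). Lztfl1, a negative regulator of BBSome entry, had 1556 ± 392 in SCO and 1406 ± 296 in hippocampus (a log2 fold change of 0.14).

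Among transition zone genes, the 11 of the MKS module had a median log2 fold change of 1.32, with 10 positive and 1 called. Tctn2 (chr5:124598749-124627738, plus strand), a tectonic protein of the MKS complex, held 3358, 9506, 6562 and 2851 normalized counts in SCO and 893, 366, 1199, 1612 and 1670.2 in hippocampus. Its SCO libraries fell into a high pair, replicates 2 and 3, and a lower pair, all above the hippocampus libraries. Means were 5569.6 ± 3096 (SD, n = 4) and 1148 ± 540.0 (SD, n = 5), and Tctn2 rose by 2.29 (standard error 0.52, adjusted p = 0.0436 by limma). It was not called by edgeR, at an adjusted p of 0.0548.

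Tmem67, which encodes meckelin, a receptor-like protein of the module, held 4304, 6862, 5709.6 and 2982 in SCO and 725, 155, 1050.4, 1634 and 1352 in hippocampus. The tissues did not overlap, and hippocampus replicate 2 was the lowest by far. The log2 fold change was 2.63 (standard error 0.64, adjusted p = 0.0564 by limma), and without hippocampus replicate 2 it was 2.05 with an adjusted p of 0.0153. Tmem67 was not called in the other 8 fits that each leave out 1 library, with limma adjusted p-values up to 0.146. Tmem231, a membrane protein of the module, held 1631, 2308, 3344 and 1736 in SCO and 1142, 187, 143, 277 and 851 in hippocampus. The tissues did not overlap here either, while hippocampus replicates 1 and 5 were higher than the other 3 (log2 fold change 2.53 ± 0.65 SE, adjusted p = 0.0680 by limma). Without hippocampus replicate 1, the hippocampus library with the most Tmem231, its limma adjusted p was 0.0412. Tmem231 was not called in the other 8 fits that each leave out 1 library, with limma adjusted p-values up to 0.166. B9d2, a B9-domain protein and the highest of the module per kilobase in hippocampus, held 2753, 1339, 1961 and 1667 in SCO and 2157, 7469.9, 2562, 3789 and 3696 in hippocampus. It was the 1 gene of the module with a negative log2 fold change, -0.94 (standard error 0.39, adjusted p = 0.273 by limma), and hippocampus replicate 2 was again the high library.

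B9d1, the other B9-domain gene of the set, and the tectonic genes Tctn1 and Tctn3 had log2 fold changes of 0.66, 1.26 and 1.55. Tctn1 had 1305 ± 538 in SCO and 520.2 ± 125 in hippocampus, with a limma adjusted p of 0.15. Mks1 ranged from 446 to 5366 in SCO and from 101 to 1017 in hippocampus (log2 fold change 1.61). Cc2d2a, a large scaffold of the module, had 677 ± 390.2 and 260.1 ± 157 (1.32). The membrane proteins Tmem216 and Tmem237 were closest between the tissues, at 0.38 and 0.19 on the log2 scale. The strand setting of the counting was not given in the sources used here, so reads of overlapping genes cannot be told apart: Tctn1 shares 19.0% of its exon bases with Hvcn1, Inpp5e 20.3% with Pmpca, and Tmem237 10.5% with G730003C15Rik.

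Of the NPHP module and the scaffolds around it, none was called. Nphp4 was a low gene whose log2 fold change of 3.19 carried an SE of 1.45. It held 361, 518, 279 and 611 in SCO and 58.7, 89.1, 137, 287 and 0 in hippocampus, where replicate 5 was at 0 reads, and the tissues overlapped through replicate 4. The large scaffolds Rpgrip1l and Cep290 had nearly equal means in the tissues, 1049 ± 492 against 999.7 ± 471 and 1274 ± 68.3 against 1452 ± 295.

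Genes of ciliary membrane proteins and their GTPases had a median log2 fold change of -0.19, with 1 of 4 positive and none called. Arl13b (chr16:62793685-62847040, minus strand), a GTPase bound to the ciliary membrane and a common stain for cilia, held 412, 379, 586 and 406 in SCO and 1643, 1524, 851, 953 and 946 in hippocampus. Every SCO library was below every hippocampus library. The log2 fold change was -1.37 (standard error 0.37, adjusted p = 0.0796 by limma), so it did not pass, while it was lower in the authors' deposited table (log2 fold change -1.41, adjusted p = 0.000168). Arl3, the GTPase that Arl13b activates and that unloads lipid-modified cargo, held 9955, 5652, 6057 and 5453 in SCO and 7159, 11914, 6653, 7446 and 5989.9 in hippocampus. The tissues overlapped, and 1 library in each was high (log2 fold change -0.21 ± 0.27 SE, adjusted p = 0.71 by limma). Inpp5e, a phosphoinositide phosphatase carried into cilia by that route, had 2902 ± 955 in SCO and 2481 ± 1403 in hippocampus, and Tulp3, an adaptor that loads receptors on IFT-A, 669 ± 222 and 934 ± 652.

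**Figure D3:**
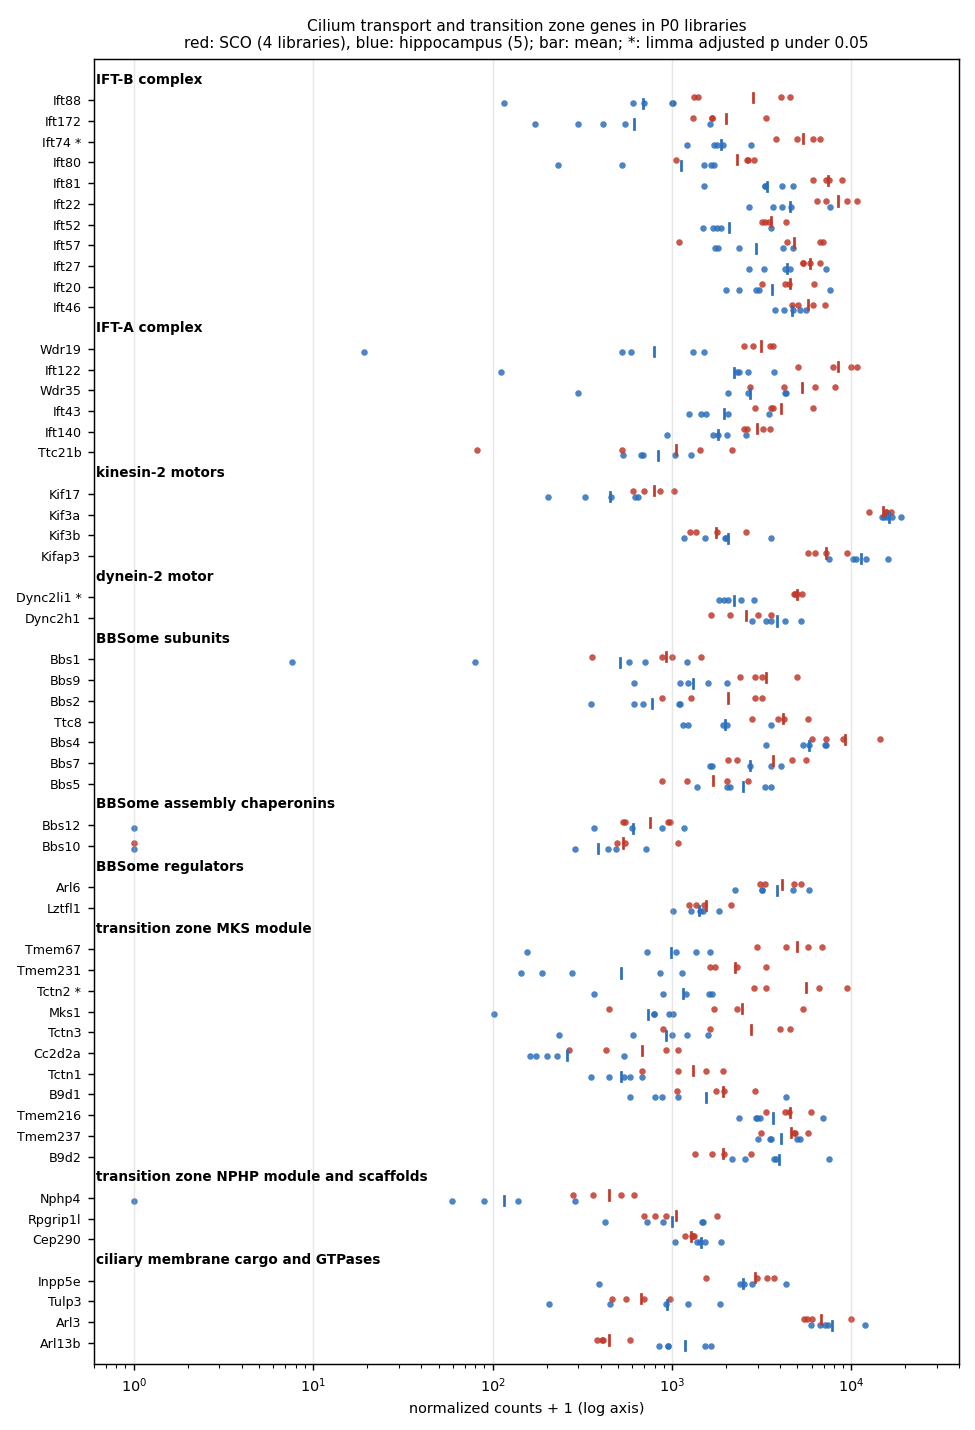
Normalized counts plus 1 (horizontal log axis) of 52 of the genes in every P0 library, grouped by role, with red points for SCO, blue points for hippocampus and a bar at each mean. Red points lie wholly right of blue ones for 10 genes, among them Ift74, Dync2li1 and Tctn2, and wholly left of them for Arl13b.

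Levels of different genes were set side by side per kilobase of annotated exon (GENCODE M21). The length counts the exons of all annotated transcripts of a gene, used in these tissues or not, so the ranks depend on the annotation as well. Kif3a had the highest mean level in both, 4207 normalized counts per kilobase in SCO and 4541 in hippocampus. It was followed in SCO by Ift20 (2969.8), Arl3 (2723), Dync2li1 (2663) and Ift43 (2457). In hippocampus Arl3 (3146), Kifap3 (2811), B9d2 (2706) and Ift20 (2354) came next. Rpgrip1l was the lowest in SCO at 71.4 and Nphp4 the lowest in hippocampus at 18.9. Dync2li1 stood above its heavy chain gene Dync2h1 in both tissues, 2663 against 158 in SCO and 1192 against 235 in hippocampus.

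Single libraries stood apart for several of these genes at once. Hippocampus replicate 2 was under 50% of the next lowest library of its tissue for 12 of the 54 genes, among them Ift122, Tmem67, Tctn2, Ift81 and Bbs1, and over 200% of the next highest for Ift20, B9d1 and Tmem216. Hippocampus replicate 5 was that low for Bbs12, Wdr19, Ift88 and Nphp4. Without hippocampus replicate 2, limma called 8 of the 54 higher: Dync2li1, Ift122, Ift22, Ift43, Ift74, Ift81, Tctn2 and Tmem67. Over all genes the same fit called 2.32% higher, up from 1.71% with all 9 libraries, and 1.54% lower. The same 8 were called when SCO replicate 4, the library with the highest choroid plexus marker sum, was left out as well. In that fit 1.93% of all genes were higher and 1.67% lower.

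The 3 calls were near the threshold. Without SCO replicate 1, 2 or 3, or without hippocampus replicate 3, none of the 54 was called. Over the 9 fits that each leave out 1 library, Ift74 kept its call in 5, with log2 fold changes from 1.39 to 1.70 and limma adjusted p-values from 0.0205 to 0.0677. Dync2li1 kept it in 3 (1.11 to 1.27, adjusted p from 0.00609 to 0.0625) and Tctn2 in 3 (1.92 to 2.55, adjusted p from 0.0406 to 0.121). The median over the 54 genes was between 0.80 and 0.97 in these 9 fits.

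**Figure D4:**
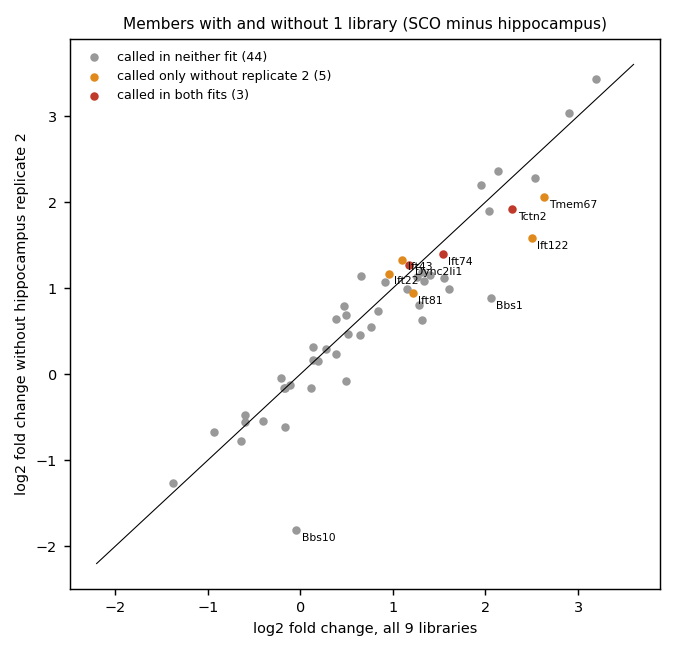
Log2 fold change of 52 of the genes with all 9 libraries (horizontal axis) and without hippocampus replicate 2 (vertical axis), both SCO minus hippocampus, with the diagonal of equality. Red points (3 genes) were called in both fits and orange points (5 genes) only without that library, while Bbs10, Bbs1 and Ift122 lie farthest under the diagonal.

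Other genes of the same complexes, from lists that the symbols above leave out, were measured in the same fit. Log2 fold changes of 16 further IFT and dynein-2 genes ran from -4.69 to 2.53, with 10 positive, 6 negative and a median of 0.30. Of the 16, 1 was called higher. That gene, Ttc30b, encodes the IFT70 subunit, with means of 2669 ± 1268 in hippocampus and 11449.6 ± 3191 in SCO (log2 fold change 2.22 ± 0.42 SE, adjusted p = 0.0186 by limma). It was not called without SCO replicate 2. Its near-identical copies Ttc30a1 and Ttc30a2 may share reads with it. The sums of the 16 genes overlapped, at 77345 to 84419 normalized counts in SCO and 70438 to 161389 in hippocampus, where replicate 2 was the highest. The 8 tested genes of the BBSome and of ciliogenesis effectors gave no call and a median of -0.32. Their sums were 20070.5 to 31590 in SCO and 25467 to 41494 in hippocampus. The 17 further transition zone and inversin genes gave no call and a median of 0.87, with Tmem17 at 1.21 (standard error 0.30, adjusted p = 0.0634 by limma) and Ahi1 at 0.94 (standard error 0.28, adjusted p = 0.108 by limma). The sums of these 17 did not overlap, at 51114 to 73011 in SCO and 33043 to 50841 in hippocampus.

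Genes of the motile axoneme, which most primary cilia lack, were set beside them. Of 23 axonemal dynein and docking genes, 3 rose and the median log2 fold change was 1.43. Of 20 radial spoke and central apparatus genes, 5 rose and the median was 2.04. Cfap52 held 209 to 989 normalized counts in hippocampus and 5872 to 8472 in SCO (log2 fold change 3.88 ± 0.45 SE, adjusted p = 0.00126 by limma). The dynein intermediate chain gene Dnaic2 held 268 to 781 in hippocampus and 2689 to 4318 in SCO (log2 fold change 2.56 ± 0.38 SE, adjusted p = 0.00538 by limma). The 8 calls of both lists became 5, 2 and 3 without SCO replicates 1, 2 and 3, and 4 without hippocampus replicate 3. The difference between these lists and the 54 genes was not tested.

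**Figure D5:**
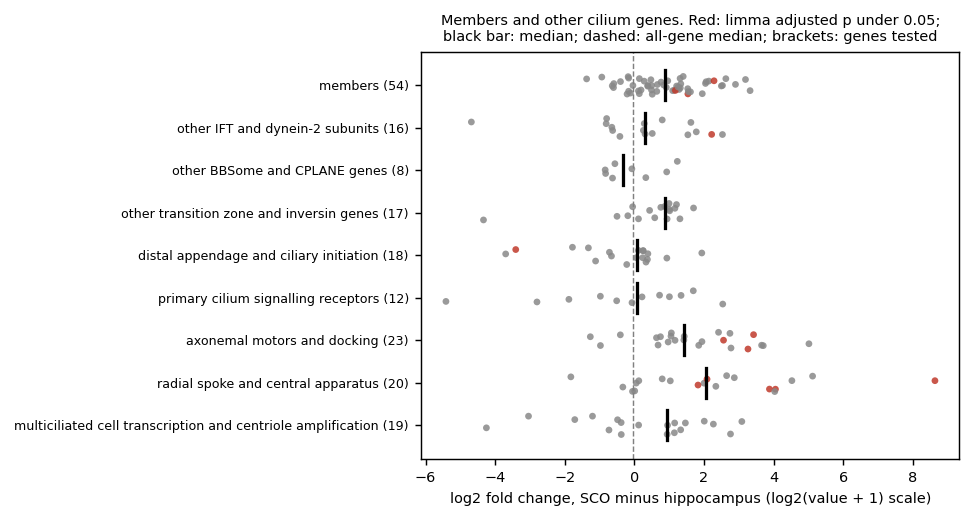
Log2 fold change, SCO minus hippocampus (horizontal axis), of the 54 genes and of 8 lists of other cilium genes, each point a gene, red where the limma adjusted p was under 0.05, with a black bar at the median of each list. The medians were 0.88 for the 54 genes, 1.43 and 2.04 for the motile axoneme lists and -0.04 over all genes (dashed line).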

How the data were processed

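Total RNA was prepared from SCO and hippocampus, per the labels' protocols. The submitters' processing notes name FastQC, HISAT, HISAT2, featureCounts, DESeq2 and the build GRCm38. The sources used here do not give their versions, the annotation or the strand setting, which matters for overlapping genes. The authors deposited 1 table: per gene, a normalized signal in each library (read counts divided by a size factor), and their own comparison, per the file headers a log2 fold change, its standard error, a test statistic (a score), a p-value and an adjusted p-value. Every library value was a whole multiple of the value of 1 read (100% of values, tolerance 1e-06), which gave the reads per library. Precision is limited by replicate spread more than by depth. Columns of other series numbered 0.

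Groups follow the labels. limma-trend was fitted on log2(value + 1) for the 28150 genes whose mean reached 1 in SCO or in hippocampus, with Benjamini-Hochberg adjustment over all of them and a call at 0.05. No covariate was used. A pseudocount understates the change of low genes, but a library at 0 reads can enlarge a difference of mean logs. The log2 fold change of Nphp4 was 3.19 by limma and 1.95 by DESeq2, and that of Bbs12 was 1.95 and 0.32. Alternatives were edgeR and DESeq2 on the recovered reads, TMM scaling, other pseudocounts and filters, robust moderation, a replicate block and leaving out libraries.

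The genes, their roles and all lists were chosen with earlier results of these data known. Values in every library are given for called genes, for the highest gene per kilobase in each role, for up to 6 uncalled genes without overlap and for up to 4 genes opposite to the majority. From other lists, up to 4 called genes a list qualify. Ift81, Bbs1, Tmem17, Ahi1 and the receptor and transcription genes printed outside these rules were chosen after their values were seen. Some genes of the set are not reported here one by one. Exon lengths and positions came from GENCODE M21 (31809 of 31883 genes matched, Ift46 without its version), promoters from RefSeq (GRCm38.p6). Software was R 4.3.3, limma 3.58.1, edgeR 4.0.16, DESeq2 1.42.0, Python 3.11.15, pandas 2.3.3 and matplotlib 3.10.9.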

Additional observations from a re-analysis of the deposited data

Results flagged for a closer look

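Among 44 groups of values checked (the named genes and the summed level of the 54, in each tissue), 4 had a library set apart from the others of its tissue. The rule compared the gap to the nearest library with the full range of the normalized counts. For normally distributed values, chance alone would set apart about 1 in 20 such groups, which need not hold for these counts. Ift20 in hippocampus replicate 2 was at 7610.2 normalized counts, against 1992 to 3061 in the other 4 libraries. Arl3 was at 11914 in the same library, against 5990 to 7446, and at 9955 in SCO replicate 1, against 5453 to 6057. Arl13b was at 586 in SCO replicate 3, against 379 to 412 in the other 3, and stayed below every hippocampus library.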

How the results depend on the processing

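The number of the 54 genes called higher was 3, and 13 with DESeq2 (1 lower, Arl13b), 2 with edgeR, 2 without the filter, 4 with a mean of at least 10 over all libraries, and 3 with TMM scaling, with a pseudocount of 0.5 or 10 and with robust moderation. It was 0 to 8 over the fits that leave out 1 library: 0 without SCO replicate 1, 2 or 3 or hippocampus replicate 3, 1 without hippocampus replicate 4, and 8 without hippocampus replicate 2. It was also 8 without SCO replicate 4 and hippocampus replicate 2. Leaving out libraries also leaves fewer samples; otherwise the cause was not tested. The median over the 54 genes stayed between 0.71 and 0.97 over all 19 alternatives, and that of all genes between -0.08 and -0.01. No named gene that was called changed sign. With the replicate block, which drops the unpaired hippocampus replicate 5, 0 of the 54 genes were called. These replicate numbers follow the order in the sample titles. Same-number correlations of deviations were -0.0289 to 0.0189 over 4 pairs, and 0 of 4 SCO libraries correlated best with their own number. By the submitters' library names, SCO replicate 3 and hippocampus replicate 4 also share a number, and their correlation was 0.0569, the highest of all. Correlations this small cannot decide whether libraries of the tissues come from the same animals. Over all genes, 125 were higher and 55 lower with the block, against 481 and 378 without. For the other primary cilium lists, chosen as a pair of counts after seeing the data, the main count of 1 higher became 9 with DESeq2, 2 with a mean of at least 10, 0 with the block, 0 to 5 leaving out 1 library (0 without SCO replicate 2 and 5 without hippocampus replicate 2), and 4 without both SCO replicate 4 and hippocampus replicate 2. For the motile axoneme lists, 8 became 17 with DESeq2, 1 with the block, and 2 to 9 leaving out 1 library (5, 2 and 3 without SCO replicates 1, 2 and 3, and 4 without hippocampus replicate 3). Bbs10 was at 0 reads in SCO replicate 1 and hippocampus replicate 2, and Bbs12 and Nphp4 in hippocampus replicate 5, a library of 143312271 reads; the cause was not tested.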

Other observations

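Genes that act around the same machinery were measured as well. Of 18 tested genes of the distal appendages and of ciliary initiation, which dock the basal body before IFT starts, 1 fell and none rose in limma-trend, and the median log2 fold change was 0.08. At least 2-fold lower were 5 of the 18, and 1 was at least 2-fold higher. Rab3ip, which encodes the Rabin8 exchange factor of the ciliary vesicle, fell by 3.41 on the log2 scale (standard error 0.79, adjusted p = 0.0454 by limma). It held 58.2, 369, 38.4 and 23.5 normalized counts in SCO replicates 1 to 4 and 523 to 1230 in hippocampus. Of 12 receptors and signalling proteins of primary cilia, none was called, with a median of 0.08, while 4 were at least 2-fold higher and 3 at least 2-fold lower. Ptch1, the Hedgehog receptor gene, was at 2.54 (standard error 0.69, adjusted p = 0.0829 by limma) without overlap between the tissues, and Gpr161, a ciliary receptor that restrains Hedgehog signalling, at -5.42 (standard error 1.51, adjusted p = 0.0893 by limma). Sstr3, a somatostatin receptor gene of neuronal cilia, had 0 reads in all 4 SCO libraries and in 3 of 5 hippocampus libraries.

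Transcription and centriole amplification genes of multiciliated cells gave no call among 19, with a median of 0.94. Foxj1, the forkhead factor of motile cilia, had 123 ± 82.2 normalized counts (SD, n = 4) in SCO, where replicate 1 held 2.98, and 29.8 ± 18.9 (SD, n = 5) in hippocampus. Rfx3, which encodes an RFX factor that binds X-boxes, had 2933 ± 1580 and 3447 ± 783, and its relative Rfx2 1556 ± 1359 and 327 ± 351. Gmnc, an early regulator of the multiciliated fate, had 0 reads in all SCO libraries and in 3 of 5 hippocampus libraries. Among markers of cells that are neither ependyma nor neurons, none was called for endothelium, microglia, the oligodendrocyte lineage, choroid plexus or dividing cells. Their median log2 fold changes were 0.60, 1.20, 1.26, 2.65 and -0.03 in that order. The summed microglia markers held 17079 to 20952 in SCO and 6390 to 13987 in hippocampus. Endothelium markers held 11629 to 17530 and 6772 to 10547, also without overlap. The part of these cells in the result was not tested. Of 10 radial glia and astrocyte markers, 1, Vim, rose (log2 fold change 1.88 ± 0.27 SE, adjusted p = 0.00464 by limma).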
